A study of Mus musculus with 6 samples.

Results

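The genes described here are 9 members of the retinoblastoma and E2F pathway, the 6 E2F transcription factor genes E2f1, E2f2, E2f3, E2f4, E2f7 and E2f8 and the 3 pocket protein genes Rb1, Rbl1 and Rbl2. They were taken by exact gene symbol, each matched 1 row, and they make up 9 of the 27763 gene rows of the table. Polyadenylated RNA was sequenced from 3 DN NK and 3 cNK libraries, both of natural killer (NK) cells taken from spleens of wild-type C57BL/6 mice at 6 weeks of age. The labels name no treatment and spell out neither short name nor the markers used to separate the groups, and the series title speaks of an immature NK subset of the spleen and of T-bet in its maturation. Whether each library had its own mouse or a pool of mice is not given, so the p-values cover only the spread between these libraries.

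E2F factors bind promoters of genes needed for DNA synthesis and cell division, most of them as a dimer with a DP protein. The pocket proteins pRB (from Rb1), p107 (from Rbl1) and p130 (from Rbl2) bind E2Fs and hold these promoters silent until cyclin-dependent kinases phosphorylate them on entry into the cell cycle. E2F1, E2F2 and E2F3 are usually described as activators, E2F4 as a repressor partnered by p107 and p130, and E2F7 and E2F8 as repressors that need neither DP nor a pocket protein. In resting cells p130, E2F4 and the MuvB core form the DREAM complex, and several genes of the pathway are themselves E2F targets. NK cells divide in bursts during their development in bone marrow and after infection, and most mature spleen NK cells are resting.

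The deposited values are FPKM, which allow for transcript length and sequencing depth, and estimated counts that the authors derived from read coverage. Estimated counts summed to between 79798234 and 89526647 per library, and a read pair was worth about 3.74 of them. NK markers (Ncr1, Klrb1c, Klrk1, Tbx21, Eomes and Il2rb) summed to 1240 to 1420 FPKM in DN NK and 1810 to 1920 FPKM in cNK, and all 6 were above 1 FPKM in both groups. Il2rb, which makes up much of the sum, did not pass, and the other 5 were lower in DN NK, from 1.56-fold for Klrk1 to 2.14-fold for Eomes, beside the members that were lower. Fold changes are DN NK over cNK from edgeR's quasi-likelihood test, called at an adjusted p of 0.05 over the 11690 rows that reached 1 FPKM in 3 or more libraries. In bulk RNA, fewer cells that express a gene and less RNA of it per cell cannot be told apart.

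Of the 9 members, 8 passed the filter on low values, E2f8 among them only through its cNK libraries, and E2f7 lay below it in all 6 libraries. E2f2, E2f8, Rbl1 and Rb1 were lower in DN NK, E2f3 was higher, and E2f1, E2f4 and Rbl2 did not pass. Over all tested rows 61.7% passed, 30.8% higher and 30.9% lower, so 5 of 8 (62.5%) is a share near that of all genes. For 5 of the 8, every library in DN NK lay on the same side of all cNK libraries, against 70.3% of all tested rows. E2f2 and E2f8 changed by 2-fold or more, and 4.69% of all tested rows were lower by that much. Among all tested rows, 0.736% had a lower log2 fold change than E2f2, 2.03% than E2f8 and 8.27% than Rbl1, while 79.4% lay below E2f3.

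By length-scaled level the members spanned a wide range. Rbl2 and E2f4 stood highest in both groups, with library ranges that overlapped each other. In DN NK the order then ran Rb1, Rbl1, E2f1, E2f3, E2f2, E2f8 and E2f7, with no overlap between the ranges of neighbours. In cNK it ran Rbl1, Rb1, E2f2, E2f1, E2f8, E2f3 and E2f7, where the ranges of E2f8 and E2f3 overlapped and those of the other neighbours did not. E2f2 was thus the seventh member by level in DN NK and the fifth in cNK, below E2f1 and E2f3 only in DN NK.

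**Figure D1:**
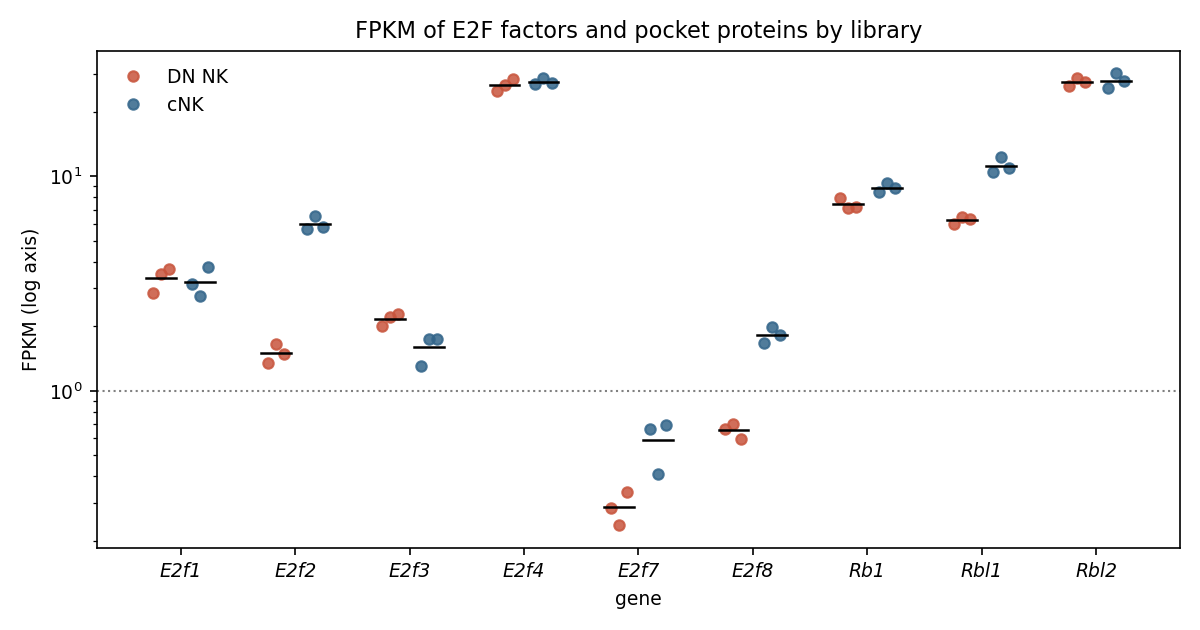
FPKM of each member on a log axis, with a point per library (DN NK left, cNK right for each gene), a bar at the mean of 3 libraries and a dotted line at 1 FPKM. E2f2, E2f7, E2f8, Rb1 and Rbl1 lie lower in all DN NK libraries than in any cNK library, E2f3 lies higher, and E2f1, E2f4 and Rbl2 overlap.

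Promoter letters are shown for the 5 members other than Rb1 whose level differed between the groups, since E2F genes can be targets of their own family. RefSeq windows on GRCm38.p6, from 250 bases before to 50 bases after an annotated start, matched 7 of the 9 members, all but E2f4 and Rb1. They were searched on both strands for the E2F letters TTTGGCGC, TTTCGCGC, TTTCCCGC and TTTGCCGC and for TTTGAA, the core of the cell cycle homology region (CHR) through which MuvB complexes bind. In the stretches below, 5′ to 3′ on the strand of the gene, capitals mark E2F or CHR letters in either direction.
E2f2, chr4:136172294-136172323, plus strand: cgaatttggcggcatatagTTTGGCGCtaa
Rbl1, chr2:157204535-157204594, minus strand: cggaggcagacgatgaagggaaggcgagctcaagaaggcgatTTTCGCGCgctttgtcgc
E2f7, chr10:110745219-110745278, plus strand: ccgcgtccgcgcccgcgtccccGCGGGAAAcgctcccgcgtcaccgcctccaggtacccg
E2f8, chr7:48881597-48881656, minus strand: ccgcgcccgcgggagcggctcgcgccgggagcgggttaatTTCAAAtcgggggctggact
E2f3, chr13:29986064-29986123, minus strand: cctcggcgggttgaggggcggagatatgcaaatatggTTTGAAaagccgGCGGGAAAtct
E2F letters stood in the windows of E2f2, E2f3, E2f7 and Rbl1, and CHR letters in those of E2f2 (at its other RefSeq start), E2f3, E2f8 and Rbl2. In Rbl1 the E2F letters begin at base -18 from the RefSeq start, in E2f3 at base -11 and in E2f7 at base -198, while in E2f2 they begin at base 40, upstream of the start at 136172394 that the deposited table gives for the gene. The window of E2f1, chr2:154569377-154569676 on the minus strand, held neither. That window lies downstream of the start at 154569892 that the deposited table gives for E2f1, so the bases at that start were not searched. E2F letters occurred in 4 of 7 members (57.1%) against 2.60% of 27025 genes with a window, and CHR letters in 4 of 7 (57.1%) against 20.2%. The 27025 genes include those below the filter on low values. Among tested rows with a window, 397 held E2F letters and 7452 did not, and 1125 held CHR letters and 6724 did not. The members with E2F letters include 3 that were lower in DN NK and 1 that was higher.

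The activator genes differed from each other. E2f2, which encodes an activator with known roles in lymphocyte quiescence and division, had 1.35, 1.65 and 1.49 FPKM in DN NK, against 5.66, 6.53 and 5.79 FPKM in cNK. All DN NK libraries lay below all cNK libraries, and no other member had so large a fold change. The fold was 3.83 lower in DN NK, with a 95% interval of 3.28 to 4.47 (log2 fold change -1.94, SE 0.10, adjusted p = 1.50e-06). The values rest on about 549 read pairs in DN NK and 2339 in cNK.

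E2f3, whose gene makes a long and a short activator isoform from separate promoters, had 2.00, 2.20 and 2.28 FPKM in DN NK, against 1.31, 1.75 and 1.74 FPKM in cNK. The groups did not overlap, and DN NK was 1.41-fold higher (95% interval 1.16 to 1.72, adjusted p = 0.00802). The table gives a value per gene, so the isoforms were not separated. E2f1, the founding activator of the family, had 2.85, 3.49 and 3.70 FPKM in DN NK and 3.13, 2.77 and 3.77 FPKM in cNK. The groups overlapped, and the log2 fold change of 0.11 did not pass (95% interval -0.21 to 0.43, adjusted p = 0.515). The interval leaves room for a change of up to 1.35-fold higher.

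The atypical repressor genes E2f7 and E2f8, which act as a brake on E2F targets late in S phase, stood lowest of the members in DN NK. In cNK E2f7 stood lowest and the range of E2f8 overlapped that of E2f3. E2f8 had 0.665, 0.701 and 0.597 FPKM in DN NK, against 1.67, 1.99 and 1.81 FPKM in cNK. Its DN NK level was 2.66-fold lower without overlap (95% interval 2.20 to 3.20, adjusted p = 1.89e-05). On the log2(FPKM + 1) scale of limma, which understates changes of low genes, its log2 fold change was -0.77. Part of E2f8 is shared with Gm2788, a gene on the opposite strand at 0.170 ± 0.0597 FPKM in DN NK and 0.670 ± 0.0691 FPKM in cNK (SD, n = 3 each), and reads of the shared stretch cannot be told apart in libraries that do not keep the strand.

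E2f7 had 0.285, 0.236 and 0.339 FPKM in DN NK, against 0.666, 0.408 and 0.693 FPKM in cNK. Its lowest cNK library lay above its highest DN NK library by less than the spread within cNK. In the fit without a filter, where 31.3% of 27763 rows were called and 16.0% called lower, E2f7 was 2.06-fold lower in DN NK (95% interval 1.48 to 2.85, adjusted p = 0.00244). That result rests on about 195 read pairs in DN NK and 427 in cNK, and it passed with each library left out in turn, at adjusted p of 0.000285 to 0.0205. Exons of E2f7 overlap those of the antisense gene 1700020G17Rik, whose reads cannot be told apart from its own there.

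E2f4, the main E2F of resting cells, had 24.9, 26.6 and 28.3 FPKM in DN NK, and 26.8, 28.8 and 27.2 FPKM in cNK. The groups overlapped and the log2 fold change of 0.01 did not pass (95% interval -0.12 to 0.14, adjusted p = 0.898). The sign of this small value turned with the scaling, and a change beyond 1.10-fold in either direction lies outside the interval.

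Among the pocket proteins, Rbl1, the gene of p107, which is itself raised in dividing cells, differed most. It had 5.98, 6.48 and 6.34 FPKM in DN NK, against 10.5, 12.3 and 10.9 FPKM in cNK. The groups lay well apart, and the DN NK level was 1.71-fold lower (95% interval 1.54 to 1.91, log2 fold change -0.78, SE 0.07, adjusted p = 2.24e-05). Rbl2, the gene of p130, the pocket protein of quiescent cells, had 26.5, 28.8 and 27.6 FPKM in DN NK and 25.7, 30.2 and 27.9 FPKM in cNK. Its groups overlapped, and its log2 fold change of 0.05 did not pass (95% interval -0.09 to 0.18, adjusted p = 0.518). Its exons overlap opposite-strand exons of Aktip and Gm45464, both at 1.56 FPKM or less in every library.

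Rb1, the gene of the retinoblastoma protein, had 7.88, 7.10 and 7.18 FPKM in DN NK, against 8.41, 9.26 and 8.83 FPKM in cNK. The groups did not overlap, but the gap was small, and DN NK was 1.15-fold lower (95% interval 1.03 to 1.27, adjusted p = 0.0282). The call was lost without DN NK replicate 2 or 3 or cNK replicate 2 or 3, at adjusted p of 0.0605 to 0.0929. Exons of Rb1 also overlap opposite-strand exons of Lpar6, which was higher in DN NK at 3.40 ± 0.0647 FPKM against 2.89 ± 0.261 FPKM, and of Rcbtb2, at 1.93 ± 0.169 FPKM in DN NK and 1.82 ± 0.107 FPKM in cNK.

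**Figure D2:**
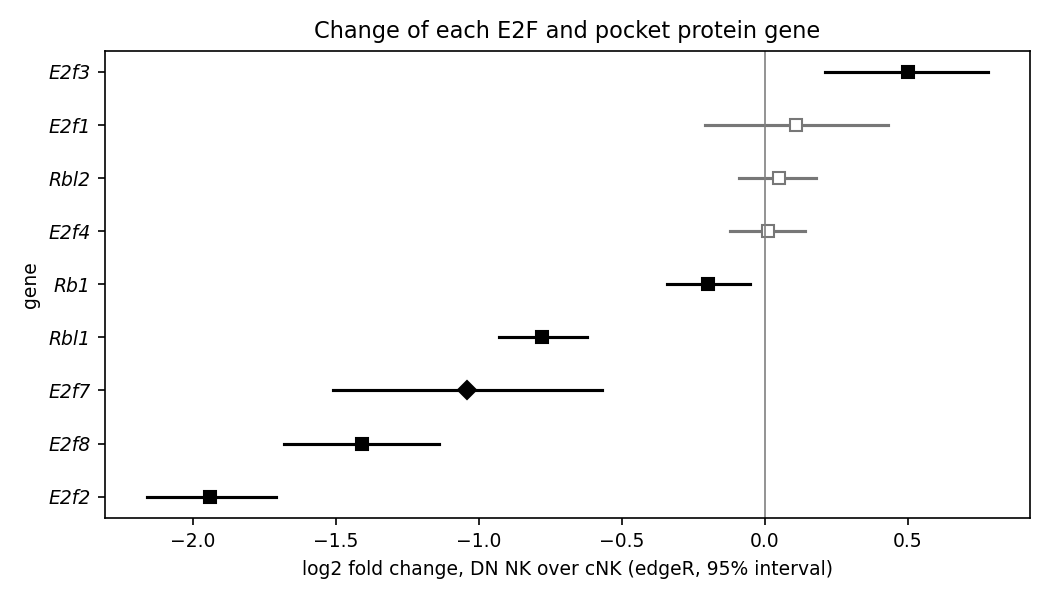
Log2 fold change of DN NK over cNK for each member with its 95% interval from edgeR, ordered from the highest at the top. Filled marks passed an adjusted p of 0.05, open marks did not, and the diamond is E2f7 from the fit without a filter; E2f2 lies lowest at -1.94 and E2f3 highest at 0.50.

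Set against each other within a library, the members gave each group a different makeup. E2f4 held 77.0 ± 0.721% of the summed FPKM of the 6 E2F members in DN NK and 67.6 ± 1.07% in cNK (SD, n = 3 each). E2f2 held 4.34 ± 0.358% in DN NK and 14.7 ± 0.711% in cNK, and the share ranges did not overlap. The sum itself was 34.6 ± 2.33 FPKM in DN NK and 40.8 ± 1.51 FPKM in cNK, so a larger share of E2f4 stood beside a level that did not differ detectably. E2f3 held 6.25 ± 0.0530% in DN NK and 3.91 ± 0.505% in cNK.

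Within the activators, the ratio of E2f2 to E2f3 FPKM was 0.675, 0.751 and 0.654 in DN NK, against 4.33, 3.73 and 3.32 in cNK. E2f3 was the more abundant of the pair in all DN NK libraries, and E2f2 in all cNK libraries. The ratio of E2f2 to E2f1 was 0.451 ± 0.0410 in DN NK and 1.90 ± 0.417 in cNK. Among the pocket proteins, Rbl1 over Rb1 was 0.758, 0.913 and 0.882 in DN NK and 1.24, 1.33 and 1.23 in cNK, which puts p107 transcripts below those of Rb1 in DN NK and above them in cNK. Rbl2 made up 66.9 ± 1.18% of the summed pocket protein FPKM in DN NK and 58.2 ± 0.513% in cNK. These shares and ratios are descriptions of values already tested gene by gene.

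**Figure D3:**
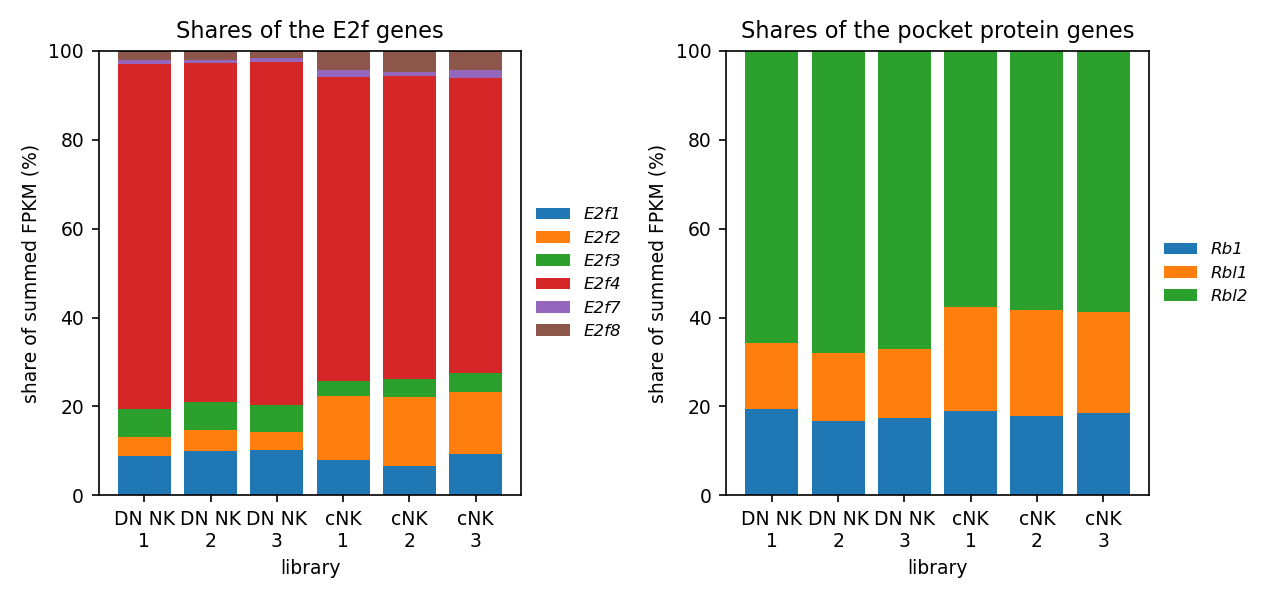
Share (%) of each gene in the summed FPKM of the 6 E2F members (left) and of the 3 pocket protein genes (right), with a stacked bar per library and DN NK libraries left of cNK libraries. The E2f2 share is 4.06 to 4.74% in DN NK libraries and 14.1 to 15.5% in cNK libraries, and the Rbl1 share is 14.8 to 15.4% in DN NK libraries and 22.8 to 23.7% in cNK libraries.

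Of 4 partners and other relatives of the members, 1 passed, against 61.7% of all tested rows. E2f5 and E2f6, which complete the repressive side of the family, did not pass: E2f5 averaged 5.22 ± 0.424 FPKM in DN NK and 5.14 ± 0.236 FPKM in cNK, and E2f6 averaged 1.43 ± 0.160 FPKM in DN NK and 1.40 ± 0.140 FPKM in cNK (SD, n = 3 each). Of the dimer partners, Tfdp1 was at 11.1 ± 0.563 FPKM in DN NK and 13.2 ± 1.84 FPKM in cNK and did not pass. Tfdp2 fell 1.13-fold (adjusted p = 0.0266), a call lost without DN NK replicate 1 or cNK replicate 1.

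Of 7 genes of the MuvB core and its partners in dividing cells, 2 rose, 2 fell and 3 did not pass. The shares of 28.6% each way lay near those of all tested rows (30.8% higher, 30.9% lower). Lin54, which encodes the subunit that contacts CHR letters, had 7.53 ± 0.463 FPKM in DN NK and 3.87 ± 0.270 FPKM in cNK, a 2.02-fold rise (adjusted p = 1.02e-05). Rbbp4, a histone chaperone subunit, rose 1.16-fold. Foxm1 and Mybl2, whose products join MuvB to activate mitotic genes, fell 2.11-fold and 1.41-fold. Lin9, Lin37 and Lin52 had log2 fold changes of 0.05, -0.16 and -0.10.

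Upstream of the pocket proteins, the G1 cyclins and kinases went both ways, with 3 of 8 tested genes higher and 3 lower. These shares of 37.5% each lay near those of all tested rows (30.8% higher, 30.9% lower). Cdk2, the kinase partner of cyclins E and A, had 4.62 ± 0.238 FPKM in DN NK and 1.93 ± 0.417 FPKM in cNK, a 2.50-fold rise. Cdk6 and Ccne2 also rose (named, like Cdk4, after their values were seen). Ccne1, the gene of cyclin E1, had 1.21, 1.72 and 1.88 FPKM in DN NK, against 3.51, 3.95 and 3.23 FPKM in cNK, a 2.13-fold fall. Ccnd2, the most abundant D-type cyclin gene here, fell 1.75-fold and Cdk4 1.21-fold.

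The CDK inhibitor genes, which keep pocket proteins active, gave 3 higher and 2 lower among 5 tested. That is 60.0% and 40.0% of only 5 genes, against 30.8% and 30.9% of all tested rows. Cdkn1a, the gene of p21, rose 2.53-fold to 45.4 ± 2.35 FPKM in DN NK, against 18.7 ± 1.73 FPKM in cNK (adjusted p = 4.77e-06). Cdkn2c, the gene of p18 INK4c, fell 2.53-fold to 1.92 ± 0.458 FPKM in DN NK, against 5.06 ± 0.293 FPKM in cNK. Cdkn1b, whose groups overlapped, and Cdkn1c rose 1.12-fold and 1.42-fold. The number of inhibitors called higher, 3 here, was 1 without a filter and with DN NK replicate 3 or cNK replicate 1 left out. It was 2 with DN NK replicate 1 or 2 or cNK replicate 3 left out, with upper quartile scaling and with limma at either pseudocount. Cdkn2d fell 1.39-fold, and Cdkn2a and Cdkn2b lay near 0 in both groups.

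Genes known as E2F targets at the start of S phase did not share a direction. Of 24 tested among 25, 4 rose, 9 fell and 11 did not pass, with a median log2 fold change of -0.14 against -0.02 over all tested rows. Thus 16.7% rose and 37.5% fell, against 30.8% and 30.9% of all tested rows. The filter admitted 1 of the 24 only through cNK and 1 only through DN NK. Without a filter 4 rose and 12 fell of 25, where 16.0% of all rows were called lower. That share covers the many rows below the filter, so it is not a like measure for a list with 24 of 25 genes above it. Every member tested in both fits also had a lower log2 fold change without the filter, such as E2f1 (0.11 and 0.05) and Rb1 (-0.20 and -0.26). Orc1, a subunit of the origin recognition complex, had 3.49, 3.31 and 3.30 FPKM in DN NK, against 0.949, 0.967 and 0.867 FPKM in cNK, a 3.77-fold rise in a gene that passed the filter only through DN NK. Rrm2, the regulated subunit of ribonucleotide reductase, had 2.87, 4.09 and 4.27 FPKM in DN NK, against 8.62, 10.4 and 9.82 FPKM in cNK, a 2.46-fold fall. Cdt1, a licensing factor that loads the replicative helicase, rose 1.72-fold. Pcna and Slbp, named after their values were seen as the others of the 4, rose 1.17-fold and 1.15-fold.

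Genes of G2 and mitosis shared a direction. All 24 were lower in DN NK in the fit without a filter, and all 23 tested with it were lower, 4 of them admitted only through cNK. Over all rows, 16.0% were called lower without a filter and 30.9% with it. The 30.9% is the nearer measure for this list, since the 16.0% covers the many rows below the filter. The median log2 fold change of the 23 G2/M genes was -1.23, against -0.02 over all tested rows. Ccna2, the gene of cyclin A2, was 3.94-fold lower at 1.29 ± 0.126 FPKM in DN NK and 5.30 ± 0.877 FPKM in cNK. Ccnb2 was 3.90-fold lower and Ube2c, an enzyme of the anaphase-promoting complex pathway, 3.11-fold lower. The genes of this list spanned 1.35-fold to 3.94-fold lower. E2f2 at 3.83-fold lower, near the far end, E2f8 at 2.66-fold, E2f7 at 2.06-fold and Rbl1 at 1.71-fold lay within that span. E2f1, E2f3, E2f4, Rb1 and Rbl2 lay outside it.

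**Figure D4:**
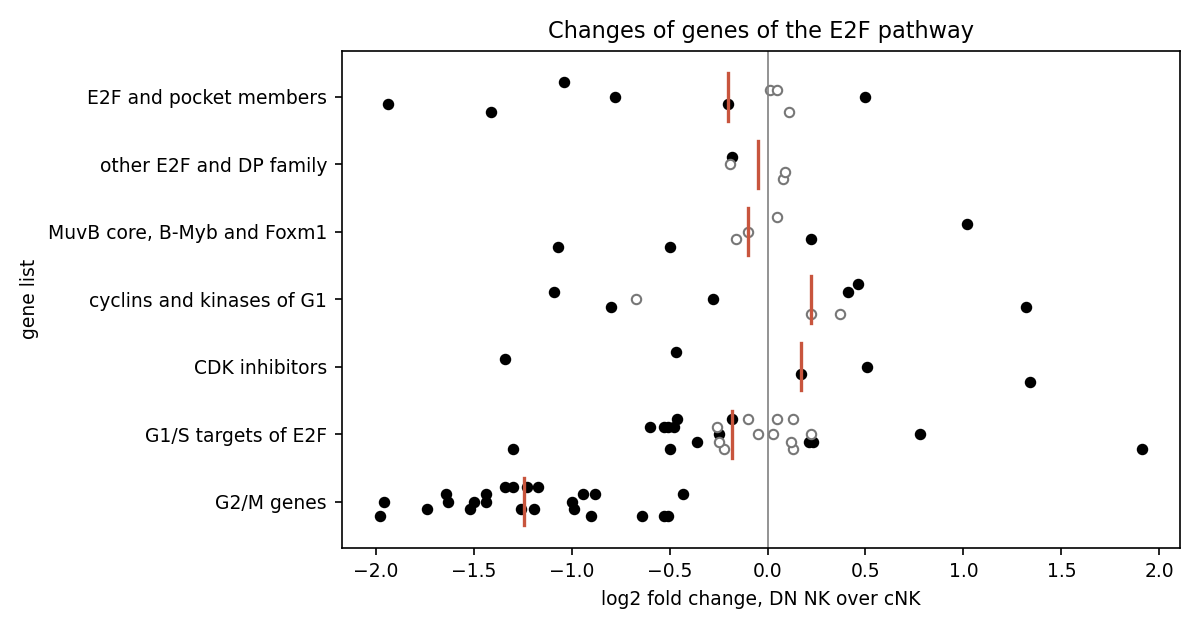
Log2 fold change of DN NK over cNK for the members and 6 lists of the pathway, with a point per gene (filled where the test passed, open where it did not) and a red bar at the median of the points. Genes below the filter come from the fit without it, and genes with 100 or fewer summed estimated counts are left out; the G2/M genes all lie left of 0, and the other lists fall on both sides.

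Promoter letters of the same lists differed. E2F letters occurred in 9 of 21 G1/S genes with a window (42.9%), and CHR letters in 15 of 20 G2/M genes (75.0%), whereas E2F letters occurred in 5.00% of G2/M genes and CHR letters in 9.52% of G1/S genes. The stretch of Orc1, which rose most, is shown as the counterpart of the lower E2F members, with capitals as above.
Orc1, chr4:108579394-108579453, plus strand: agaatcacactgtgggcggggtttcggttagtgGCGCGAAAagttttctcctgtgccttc
Its E2F letters are the reverse complement of those in Rbl1, a member that was lower in the same libraries. Among the 9 tested G1/S genes with E2F letters 2 rose and 4 fell. Over all 397 tested rows with E2F letters, 31.2% were higher and 31.7% lower, against 31.5% and 32.9% of 7452 rows with a window and no such letters. Of 1125 tested rows with CHR letters, 29.2% were higher and 36.0% lower, against 31.9% and 32.3% of 6724 rows without. Among tested G2/M genes with a window, all 14 with CHR letters were lower, with a median log2 fold change of -1.12, and so were all 5 without them, with a median of -1.26.

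**Figure D5:**
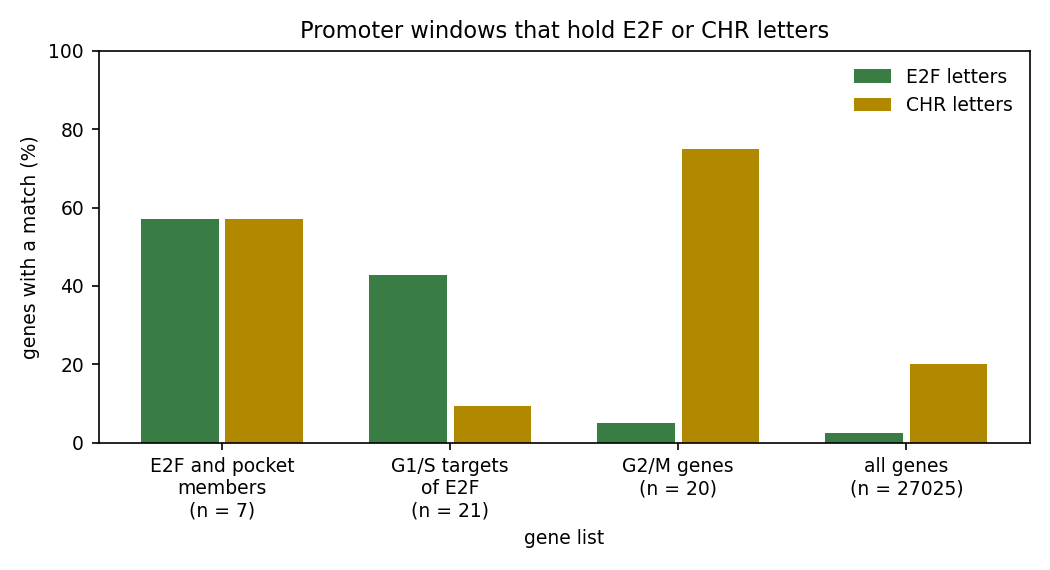
Share (%) of genes with at least 1 match to E2F or CHR letters in a RefSeq promoter window, for the members, 2 lists and all genes with a window (n below each pair of bars). The bars of the members stand at 57.1% for both motifs, and those of all genes at 2.60% and 20.2%.

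Markers of other cell types moved with the groups. Several of them lay below the filter, so the counts of markers called higher come from the fit without it. In that fit 31.3% of 27763 rows were called in either direction, rows that include the many below the filter. The 7 B cell markers summed to 25.8 to 39.1 FPKM in DN NK and 0.883 to 1.25 FPKM in cNK, and all 7 were higher. The 7 T cell markers summed to 59.7 to 61.9 FPKM in DN NK and 7.78 to 8.28 FPKM in cNK, with 6 higher. Most of both sums was Cd3d (mean 38.5 FPKM in DN NK, 4.54 in cNK) and Cd3g (17.3 and 3.39). Cd4 averaged 3.51 FPKM in DN NK and 0.0160 in cNK. Cd3e, Cd5, Cd8a and Cd8b1 lay below 1 FPKM in every library, and Cd8b1 did not pass. The 5 ILC2 and ILC3 markers in the table summed to 3.45 to 4.95 FPKM in DN NK and 0.0994 to 0.134 FPKM in cNK, with 3 higher and Il13 at 0 in DN NK, and the 4 plasma cell markers in the table to 5.05 to 8.08 FPKM in DN NK and 0.469 to 0.932 FPKM in cNK, with 3 higher. Erythroid markers, of interest because dividing red cell precursors of the spleen use E2F factors, summed to 30.5 to 44.2 FPKM in DN NK and 22.3 to 29.3 FPKM in cNK, nearly all of it globin. Of the 7, Hba-a1 and Hbb-bs were higher, by 1.38-fold and 1.56-fold, and Klf1 was at 0 in all cNK libraries. Monocyte and macrophage markers summed to 6.06 to 6.82 FPKM in DN NK and 6.45 to 7.23 FPKM in cNK. E2f3, Orc1 and Cdkn1a rose in the libraries where B cell, T cell, plasma cell and ILC markers and 2 of the globin genes were higher, and E2f2, E2f7, E2f8 and Rbl1 were lower in them. The part of these cells in the values of the members was not tested.

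The genes whose pattern came nearest to that of E2f2 over the 6 libraries, by Pearson's r of log2(FPKM + 1), included Med30, Acss2, Ormdl1 and Ccndbp1, at r of 0.9993 to 0.9995. These 4 were lower in DN NK, from 1.40-fold for Ccndbp1, which encodes a cyclin D binding protein, to 3.06-fold for Acss2, an acetyl-CoA synthetase. An r of 0.99 or more was reached by 580 rows, and the 6 libraries form 2 clusters, so r mostly measures the difference between the groups.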

How the data were processed

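Spleen NK cell RNA was taken with Trizol and poly(A) RNA selected from 5 µg, and TruSeq RNA v2 libraries, which do not keep the strand, were read as pairs of 150 bases, per the labels' protocols. Per the submitters' processing notes, HISAT and StringTie were used on GRCm38 (mm10), with edgeR also listed; settings and versions are not given in the sources used here. The deposited table gives FPKM per gene and library, per the file headers, and whole-number estimated counts, which the authors derived from coverage: of low values in rows with 1 transcript, 85.4 to 87.1% equalled FPKM times length times a constant, rounded up.

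The estimated counts were tested with edgeR 4.0.16 in R 4.3.3 (quasi-likelihood, robust, TMM factors of 0.972 to 1.03, 2-sided, group as the only term, Benjamini-Hochberg over all tested rows). A standard error is the log2 fold change divided by the square root of F. The biological coefficient of variation was 13.5%. Alternatives used limma 3.58.1 on log2(FPKM + 1) or log2(FPKM + 0.1), DESeq2 1.42.0, other scalings and filters, counts per read pair, a replicate block, and each library left out. The fit was tested on simulated data. Members, lists and tests were chosen with earlier results of these data known. Named were all members, the 3 largest called changes of each list, members of lists of up to 7 genes, genes the text says were named after their values were seen, and the 5 genes nearest to E2f2, of which 1 is not reported here. Intervals cover the spread between libraries and counting error of approximate counts. Promoter sequences are RefSeq's on GRCm38.p6.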

Additional observations from a re-analysis of the deposited data

How the results depend on the processing

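E2f2, E2f3, E2f8 and Rbl1 kept their direction and call in every alternative that tested them (14 each, 15 for Rbl1), and E2f7 in the 6 fits without a filter that left out a library, which were chosen after seeing the data. Rb1 kept its direction in 15 alternatives and lost its call in 4 fits without a library (log2 fold change -0.20 to -0.17). E2f4 and Rbl2, which did not pass, changed sign: E2f4 lay at -0.06 without a filter, -0.003 with a mean of at least 5 FPKM, -0.08 with upper quartile scaling, -0.05 with limma at either pseudocount, and between -0.03 and 0.04 with a library left out. Rbl2 lay at -0.02, -0.04 and -0.01 without a filter, with upper quartile scaling and with limma, and between -0.0008 and 0.10 with a library left out. Requiring a mean of at least 5 FPKM tested 6801 rows, against 11690, and called 4614, against 7215. Of the members it tested only E2f4, Rb1, Rbl1 and Rbl2, so E2f2, E2f3 and E2f8 were left out and did not lose a call. Tfdp2, Mybl2, Foxm1, Cdk2, Cdk6 and Ccne2, all called in the main fit, lay below that mean and were left out too. The counts under this stricter filter are therefore of fewer tested genes. With this filter 0 members were higher and 2 lower. Of the lists, 0 of the other E2F and DP genes, 0 of the MuvB list, 1 CDK inhibitor, 5 G1/S genes and 5 G2/M genes were lower. None of the G1 cyclins and kinases was higher. Upper quartile scaling called 2 other E2F and DP genes lower, and leaving out a library 0 to 1. CDK inhibitors called higher numbered 1 without a filter and 1 to 3 with a library left out. Why these counts moved with the scaling, without a filter or with a library left out was not tested. Same-numbered libraries of the groups deviated together weakly (r = 0.11, 0.09 and 0.15), although each library correlated best with its own number. With the replicate number as a block 7222 rows were called, and 1 member was higher and 4 lower, as without it. Low read pair numbers limit E2f7 and E2f8.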
